A study of Mus musculus with 127 samples.

Results

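The 10 genes described here are Kit, Flt3, Cd34, Cd27, Myb, Sox4, Gata2, Meis1, Hoxa9 and Erg, surface proteins and transcription factors of blood stem and progenitor cells. They were chosen by name, and all 10 are among the 23946 genes of the deposited table. They were followed in single cells from the bone marrow of wild-type C57BL/6 mice. Marrow was taken from crushed hindlimbs, enriched on CD117 (Kit) magnetic beads, sorted by flow cytometry and captured on a Fluidigm C1 microfluidic chip. The cell type label of every cell ends in GMP-P, although the titles of the CD11b+ cells read GMP, and the cells fall into 3 sorting gates: CD11b+ Ly6g high with 46 cells, CD11b+ Ly6g low with 41 cells, and CD11b+ with 40 cells. They are called Ly6g high, Ly6g low and CD11b+ in what follows. The labels name no animal and no age, so each gate is 1 sample. The values describe these cells, no test between gates was possible, and intervals cover counting error only. The names of the CD11b+ cells carry a numeric prefix that those of the other cells lack. The labels do not say what it stands for, so gate and any difference that it marks cannot be told apart.

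Kit is the receptor for stem cell factor and Flt3 the receptor for Flt3 ligand, and both are tyrosine kinases that keep early progenitors alive and dividing. Cd34 is a sialomucin and Cd27 a TNF receptor family member, both used to sort early blood cells. Myb is a transcription factor of proliferating progenitors, Gata2 acts in stem cells and in mast, basophil and megakaryocyte lineages, and Meis1 with Hoxa9 forms a complex best known from stem cells and leukaemia. Erg is an Ets factor of stem cells and Sox4 an HMG-box factor of early progenitors. In textbook neutrophil development most of these transcripts decline as primary granule genes (Mpo, Elane) and then specific granule genes (Camp, Ltf) appear.

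The deposited class file places the cells in 11 classes, by a method that the labels do not give. The 4 Myelo classes hold 102 cells (Myelo-1 5, Myelo-2 72, Myelo-3 9, Myelo-4 16). The other 7 classes hold 25 cells: HSCP-2 7, Multi-Lin 1, MDP 1, Eryth 1, Mono 5, Gran-1 4 and Gran-2 6. Of these 25 cells, 18 came from the CD11b+ gate, 4 from Ly6g low and 3 from Ly6g high. The sorted marker was checked on its transcript: Itgam, which encodes CD11b, reached 1 TPM (a length-normalised measure of a transcript's share in its cell) in 98 of 102 Myelo cells but in 7 of 25 other cells, and in 0 of 7 HSCP-2 cells, which allows a share of up to 42.9%. Fcgr3, one of the Fc receptors by which GMP are usually gated, reached 1 TPM in 72 of 102 Myelo cells and 17 of 25 other cells. Among the HSCP-2 cells Fcgr3 reached 1 TPM in 1 of 7, so both transcripts were at or near 0 there. A sort acts on protein, which the table does not hold.

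3 cells stood apart in ways that touch the results. The single MDP cell (Ly6g low cell 40) went against its name: the basophil proteases Prss34 and Mcpt8 stood at 172424 and 43285 TPM, whereas Irf8 and Flt3 were listed at 0. It is called the MDP-labelled cell here. Ly6g low cells 8 and 10, both of class Myelo-2, held 49879 and 20283 TPM of Camp together with Gata2, Gata1 and Cpa3, and had 4278 and 4503 genes at 1 TPM or more, against at most 3537 in the other 70 Myelo-2 cells. No doublet caller was run on this number of cells, and whether these captures held more than 1 cell was not tested. Counts that include them are given with and without them where they change. Abundant transcripts were also present at low levels in many cells. Camp was at 5.41 TPM or more in every cell. Elane and Mpo reached 1 TPM in 40 of 40 CD11b+ cells, with lowest values of 1.69 and 1.61 TPM. They did so in 17 and 9 of 46 Ly6g high cells and in 16 and 15 of 41 Ly6g low cells. Whether a low-level background differs between gates was not tested. A value near 1 TPM therefore carries little weight.

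**Figure D1:**
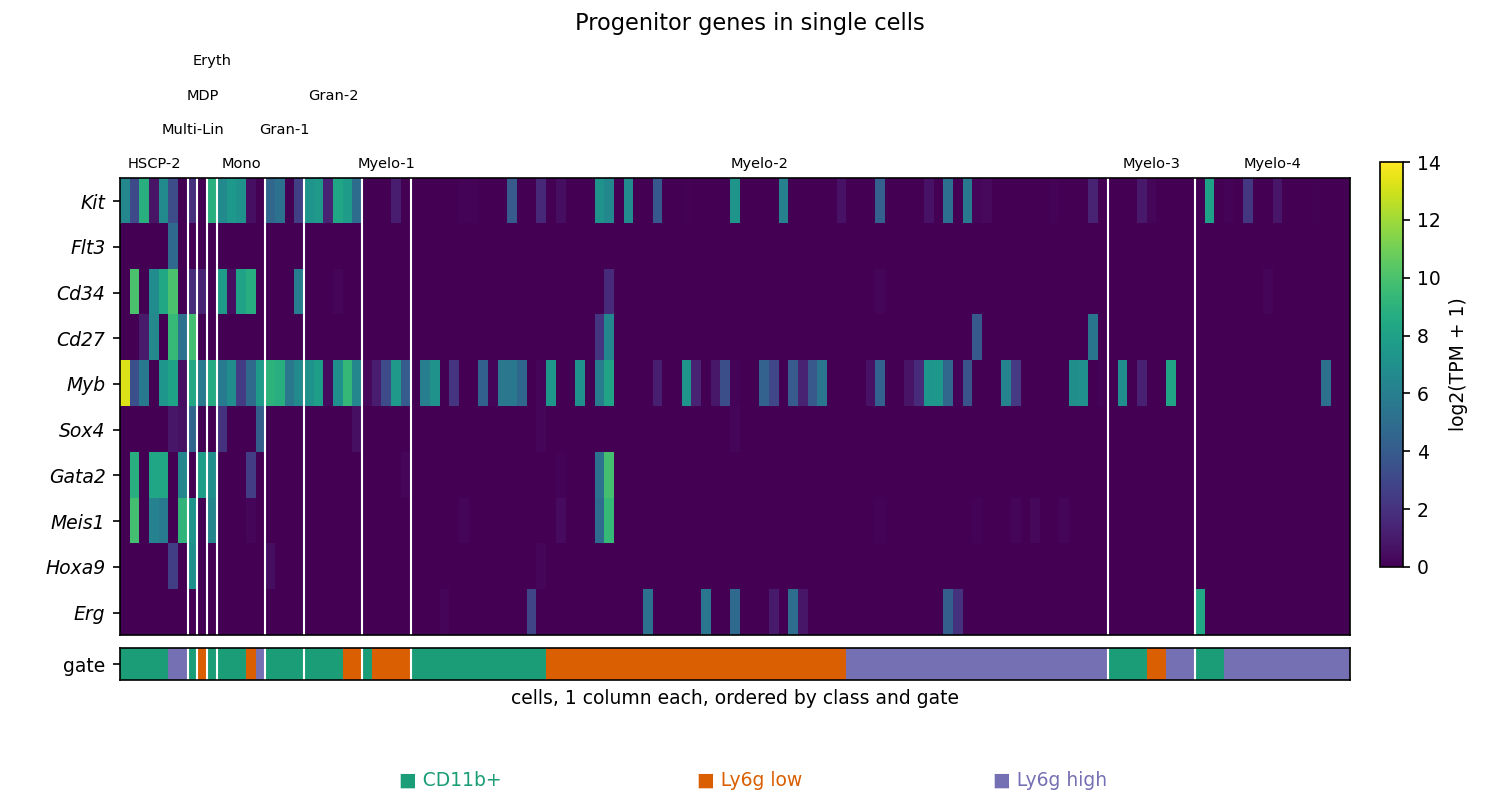
Level of each of the 10 progenitor genes (rows, log2(TPM + 1) as colour) in each cell (columns, ordered by class and gate, gate in the lower strip). Signal lies mostly in the classes at the left, and Kit and Myb also reach into Myelo-2, whereas Erg appears only among Myelo-2 and Myelo-4 cells.

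Progenitor transcripts were sparse in these Kit-enriched cells. Of the 1270 values that the 10 genes have over all cells, 1073 were 0 and 147 were at 1 TPM or more, the level called detected from here on. Myb was detected in 61 cells (48.03%, exact binomial 95% interval 39.1 to 57.1) and Kit in 34 (26.8%, 19.3 to 35.4). Cd34 was detected in 11 cells (8.66%, 4.40 to 14.96). Gata2, Erg and Cd27 were detected in 9 cells each, Meis1 in 8, Sox4 in 3, Hoxa9 in 2 and Flt3 in 1. At 10 TPM the numbers were 48 for Myb, 25 for Kit and 8 for Cd34. The low-level background was not estimated for these genes, and the far more abundant Camp had a median of 25.6 TPM outside the Myelo classes. Sox4 and Hoxa9 were more often above 0 but under 1 TPM (5 and 2 cells) than at 10 TPM (2 cells and 1 cell).

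The 10 genes split by class. Kit was detected in 19 of the 25 cells outside the Myelo classes (76%, 54.9 to 90.6) and in 15 of 102 Myelo cells (14.7%, 8.47 to 23.1). Myb was detected in 22 of 25 (88%, 68.8 to 97.5) and in 39 of 102 (38.2%, 28.8 to 48.4). Cd34 was found in 10 of 25 cells and in 1 of 102, and that 1 was Ly6g low cell 10 at 2.13 TPM. Without cells 8 and 10, Cd34 was detected in 0 of 100 Myelo cells, which allows a share of up to 3%. Sox4, Flt3 and Hoxa9 were each detected in 0 of 102 Myelo cells, which allows up to 2.94%. Since the classes come from the same transcriptomes, these splits are descriptions. Cells outside the Myelo classes also had more genes detected, with a median of 3833 against 2035, and the part of this difference in the counts was not tested.

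Kit, the receptor on which the cells were enriched, was highest in the single Eryth cell, at 481 TPM. Among classes with more than 1 cell it was highest by median in Gran-2, where all 6 cells had it (lowest 1.59, median 171, highest 314 TPM). The 5 Mono cells had 178, 144, 104, 0.51 and 0 TPM, and the 4 Gran-1 cells had 35.7, 23.2, 5.33 and 0 TPM. In HSCP-2, Kit ran from 0 to 436 TPM with a median of 9.01, and was detected in 5 of 7 cells. The ranges of Gran-2, Mono, Gran-1 and HSCP-2 overlapped one another, so no order among them goes beyond their spread. The Multi-Lin cell had 2.63 TPM and the MDP-labelled cell 0.

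Kit transcripts were found in some cells with high summed late neutrophil transcripts. In Myelo-2, 12 of 72 cells had Kit (16.7%, 8.92 to 27.3), with a highest value of 150 TPM, in Ly6g low cell 25. Apart from Ly6g low cells 8 and 10, next came Ly6g low cells 12 and 32, at 107 and 68.2 TPM, and Ly6g high cell 63, at 48.7 TPM. These 4 cells each had 223748 to 258934 TPM in the 12 specific granule and mature neutrophil genes, with 8 or 9 of the 12 detected. Without cells 8 and 10 (146 and 91.98 TPM of Kit), 10 of 70 Myelo-2 cells had it. Kit was in 1 of 5 Myelo-1 cells (1.19 TPM) and 0 of 9 Myelo-3 cells, which allows up to 33.3%. In Myelo-4 it was in 2 of 16 cells, at 262 TPM in CD11b+ cell 17 and 3.90 TPM in Ly6g high cell 61.

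**Figure D2:**
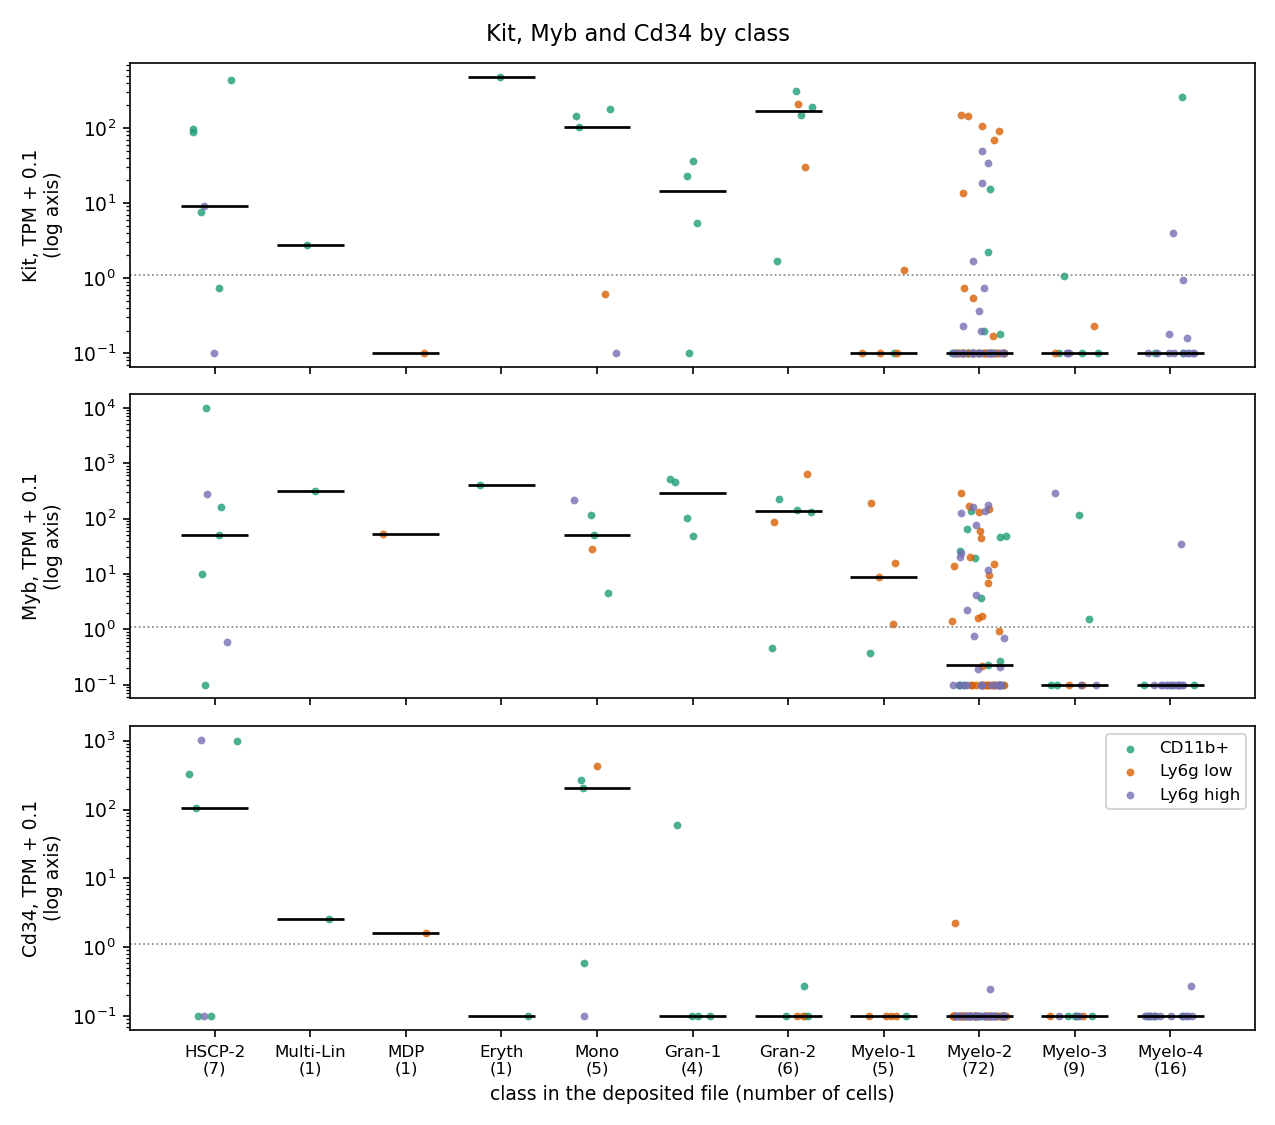
TPM + 0.1 on a log axis for Kit, Myb and Cd34 in each cell by deposited class, 1 point per cell coloured by gate, with the median as a bar and 1 TPM as a dotted line. Kit and Myb medians are above 1 TPM in HSCP-2, Mono, Gran-1 and Gran-2, Cd34 is high in HSCP-2 and Mono, and Myelo-2 holds cells on both sides of the line for Kit and Myb.

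Flt3 was detected in a single cell, Ly6g high cell 56 of class HSCP-2, at 26.3 TPM. The same cell had the highest Cd34 of all, 1028 TPM, with Cd27 at 660 TPM, Dntt (the terminal transferase of lymphoid progenitors) at 953 TPM and Cd79b at 1550 TPM. It thus carried lymphoid transcripts in a gate set on a neutrophil surface marker.

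Cd34 was confined, among values over 10 TPM, to HSCP-2, Mono and Gran-1. In HSCP-2 it had 1028, 998, 328, 106, 0, 0 and 0 TPM. The 5 Mono cells had 427, 271, 206, 0.49 and 0 TPM. In Gran-1 1 of 4 cells had it (58.8 TPM), and in Gran-2 0 of 6, which allows up to 50%. The ranges of HSCP-2 and Mono overlapped, whereas Gran-2, where Kit was highest by median, held no Cd34 over 0.17 TPM. Of the 11 cells with Cd34, 10 had Myb and 8 had Kit. Without Ly6g low cells 8 and 10 these were 9 and 7 of 10.

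Cd27 was found in 9 cells of several classes. The highest values were 891 TPM in the Multi-Lin cell (CD11b+ cell 1), 660 TPM in Ly6g high cell 56 and 93.6 TPM in CD11b+ cell 43. Ly6g high cell 85 had 38.1 TPM and CD11b+ cell 39 had 1.04 TPM. In Myelo-2 it was in Ly6g high cells 92 and 64, at 42.2 and 14.3 TPM, and in Ly6g low cells 10 and 8. Leaving out the last 2 cells removed every Ly6g low cell with Cd27.

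Myb was the most widely kept of the 10 genes. It was detected in 5 of 5 Mono cells (4.51 to 213 TPM, median 51), in 4 of 4 Gran-1 cells (48.1, 104, 462 and 525 TPM) and in 5 of 6 Gran-2 cells (median 136, highest 632 TPM). HSCP-2 ranged from 0 to 9788 TPM around a median of 50.3. That extreme value belongs to CD11b+ cell 21, which also had 31088 TPM of Mpo, and makes up 95.2% of the summed Myb of the class. In the Myelo classes the share with Myb was 4 of 5 in Myelo-1, 31 of 72 in Myelo-2, 3 of 9 in Myelo-3 and 1 of 16 in Myelo-4, and the medians were 8.67, 0.13, 0 and 0 TPM. The Myelo ranges overlapped, and Myelo-4, the class with the lowest share, had 34.95 TPM in its 1 cell. The median number of genes detected was 3514, 2239.5, 1282 and 1409 in the same 4 classes. It was thus higher in Myelo-1 and Myelo-2 than in Myelo-3 and Myelo-4, as was the share with Myb. The part of detection in these shares was not tested.

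Sox4 was found in the Multi-Lin cell at 22.4 TPM and in 2 Mono cells, Ly6g high cell 77 at 16.5 TPM and CD11b+ cell 10 at 3.09 TPM. Hoxa9 was found in the Multi-Lin cell at 128 TPM and in Ly6g high cell 56 at 5.07 TPM. Both genes thus marked very few cells, and their counts carry no more than that.

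Gata2 and Meis1 were found largely in the same cells. Gata2 was detected in 9 cells and Meis1 in 8, with 7 in common, or 7, 6 and 5 without Ly6g low cells 8 and 10. In these 7 cells Meis1 stood at 891, 668, 564, 82.3, 72.5, 53.7 and 28.7 TPM. Their Gata2 values ran from 37.8 to 923 TPM. The 7 were CD11b+ cells 29, 43 and 44 and Ly6g high cell 85 of HSCP-2, the Eryth cell, and Ly6g low cells 8 and 10 of Myelo-2. The MDP-labelled cell (234 TPM) and the Mono cell Ly6g low cell 34 (4.90 TPM) had Gata2 without Meis1, and the Multi-Lin cell had Meis1 (151 TPM) without Gata2. Without Ly6g low cells 8 and 10, Gata2 and Meis1 were each in 0 of 70 Myelo-2 cells, which allows up to 4.29%, and the mean of Meis1 in the Ly6g low gate went from 16.999 to 0.013 TPM.

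The sequences just upstream of both genes are shown because their transcripts were often found in the same cell. They are RefSeq promoters of GRCm38.p6, each cut to the 250 bases before the transcription start and written 5′ to 3′ on the strand of the gene. The data were aligned to another build, mm9, and bear on the transcripts, not on these windows. Meis1 lies on the minus strand, at chr11:19018970-19019219, and the upstream start of Gata2 on the plus strand, at chr6:88193641-88193890. Capitals mark matches, on either strand, to 4 short motifs.
Meis1: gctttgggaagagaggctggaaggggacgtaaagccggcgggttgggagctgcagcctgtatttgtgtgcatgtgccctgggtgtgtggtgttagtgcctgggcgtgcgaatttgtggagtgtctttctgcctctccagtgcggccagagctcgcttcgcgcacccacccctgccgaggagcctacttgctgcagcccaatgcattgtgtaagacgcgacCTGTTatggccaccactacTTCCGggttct
Gata2: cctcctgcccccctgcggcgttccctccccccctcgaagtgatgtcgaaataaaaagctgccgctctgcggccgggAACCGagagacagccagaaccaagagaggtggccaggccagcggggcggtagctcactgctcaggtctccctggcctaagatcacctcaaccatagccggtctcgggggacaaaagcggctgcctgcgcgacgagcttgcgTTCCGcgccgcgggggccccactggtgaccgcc
The motifs searched were GATAA (GATA factors), AACNG (Myb), TGACAG (Meis1) and CGGAA (Ets factors such as Erg). Both windows shown held 1 AACNG and 1 CGGAA and none of the other 2, while a second start of Gata2, at chr6:88198414-88198663 on the plus strand, held none of the 4. AACNG occurs in 74.2% and CGGAA in 25.2% of 32851 promoters of this length, GATAA in 22.6% and TGACAG in 15.9%. Among 14 promoters of the 10 genes, 9 held AACNG, 4 CGGAA, 3 GATAA and 1 TGACAG, and the Kit and Myb windows held none. A match is a short word in the sequence and says nothing about binding.

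Erg was found in Myelo cells. It was detected in 9 of 102 Myelo cells (8.82%, 4.11 to 16.1) and in 0 of the 25 cells outside the Myelo classes. A count of 0 of 25 allows a share of up to 12%, so a difference between the 2 was not detectable at this number of cells. The highest value was 325 TPM, in CD11b+ cell 14 of Myelo-4. The other 8 were Myelo-2 cells between 1.03 and 44.5 TPM, of which Ly6g low cells 22, 16, 33 and 25 had 44.5, 37.6, 32.5 and 26.7 TPM. All 9 had at least 48598 TPM of Camp. None had Cd34, Gata2, Meis1 or Cd27, 2 had Kit and 3 had Myb.

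Kit and Myb were compared cell by cell with the neutrophil programme. Both were detected in 26 cells, Kit alone in 8, Myb alone in 35 and neither in 58. The 26 cells with both had a median of 402 TPM in the 12 specific granule and mature neutrophil genes (lowest 37.1, highest 258934). Their median in the 10 primary granule and early granulocyte genes was 50357 TPM. The 35 cells with Myb alone had medians of 199005 and 852 TPM in the same 2 lists, and the 58 with neither had 198676 and 104 TPM. The 8 cells with Kit alone, 7 of them Myelo cells, had 214666 and 62.96 TPM. The groups overlapped at both ends, since 8 of the 26 cells with both were Myelo cells, or 6 of 24 without Ly6g low cells 8 and 10. Cells with both had a median of 3552.5 genes detected, against 1720.5 in cells with neither, so depth of detection moved with the split, and its part was not tested.

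**Figure D3:**
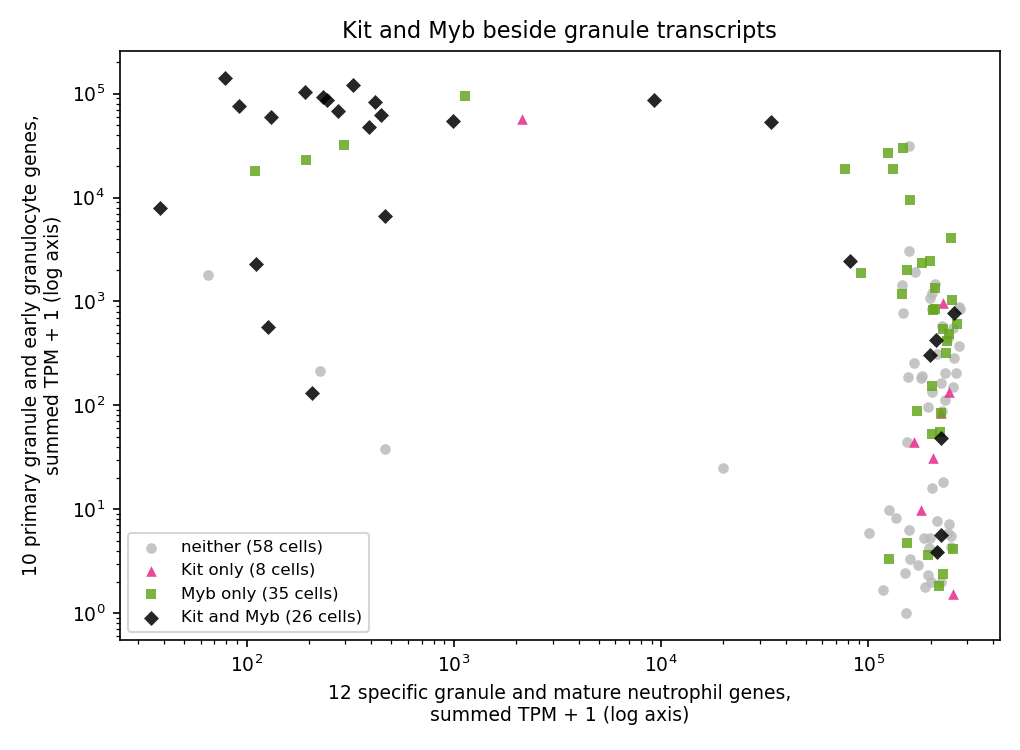
Summed TPM + 1 of 10 primary granule and early granulocyte genes (vertical, log axis) against 12 specific granule and mature neutrophil genes (horizontal, log axis) for all cells, marked by detection of Kit and Myb at 1 TPM. Most cells with both genes lie at low late and high early granule sums, while cells with Myb alone, Kit alone or neither gather at the right, around medians of 199005, 214666 and 198676 TPM of late granule transcripts.

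Few cells held several of the 10 genes. 50 cells had 0, 42 had 1, 19 had 2 and 16 had 3 or more. Those 16 were 6 of 7 HSCP-2 cells, the Multi-Lin, MDP-labelled and Eryth cells, 3 of 5 Mono cells, 1 of 4 Gran-1 cells and 3 of 72 Myelo-2 cells. Without Ly6g low cells 8 and 10 they were 14, with 1 of 70 in Myelo-2. Outside the Myelo classes the share was 13 of 25 (52%, 31.3 to 72.2), and in the Myelo classes 3 of 102 (2.94%, 0.61 to 8.36). The median number of genes detected was 3552.5 in the 16 cells, 2432 in the 61 cells with 1 or 2 and 1665.5 in the 50 with 0, so the count per cell also moved with detection, and its part was not tested.

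The 16 cells carried the transcripts of different lineages beside the progenitor genes. The Eryth cell had 12563 TPM of Car1, a carbonic anhydrase of red cell precursors, with 414 TPM of Gata1, the erythroid and megakaryocyte factor. Pf4, a platelet chemokine, stood at 1708 TPM in Ly6g high cell 85 and at 209.85 TPM in CD11b+ cell 43. CD11b+ cell 44 had 1160 TPM of Ms4a2, the beta chain of the IgE receptor, and 564 TPM of Cpa3, the mast cell carboxypeptidase. CD11b+ cell 39 had 436 TPM of Kit with 4765 TPM of Cpa3 and 2710 TPM of Dntt. Gata1 was detected in 6 cells in all, each with Gata2, and Cpa3 in 8 cells, 6 of them with Gata2. Without Ly6g low cells 8 and 10 these were 4, 6 and 4. The Multi-Lin cell, with 7 of the 10 genes the highest count, had 19342 TPM of Elane, a primary granule protease. The 7 HSCP-2 cells were thus unlike one another in their lineage transcripts, and a mean over them is a mean over unlike cells.

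**Figure D4:**
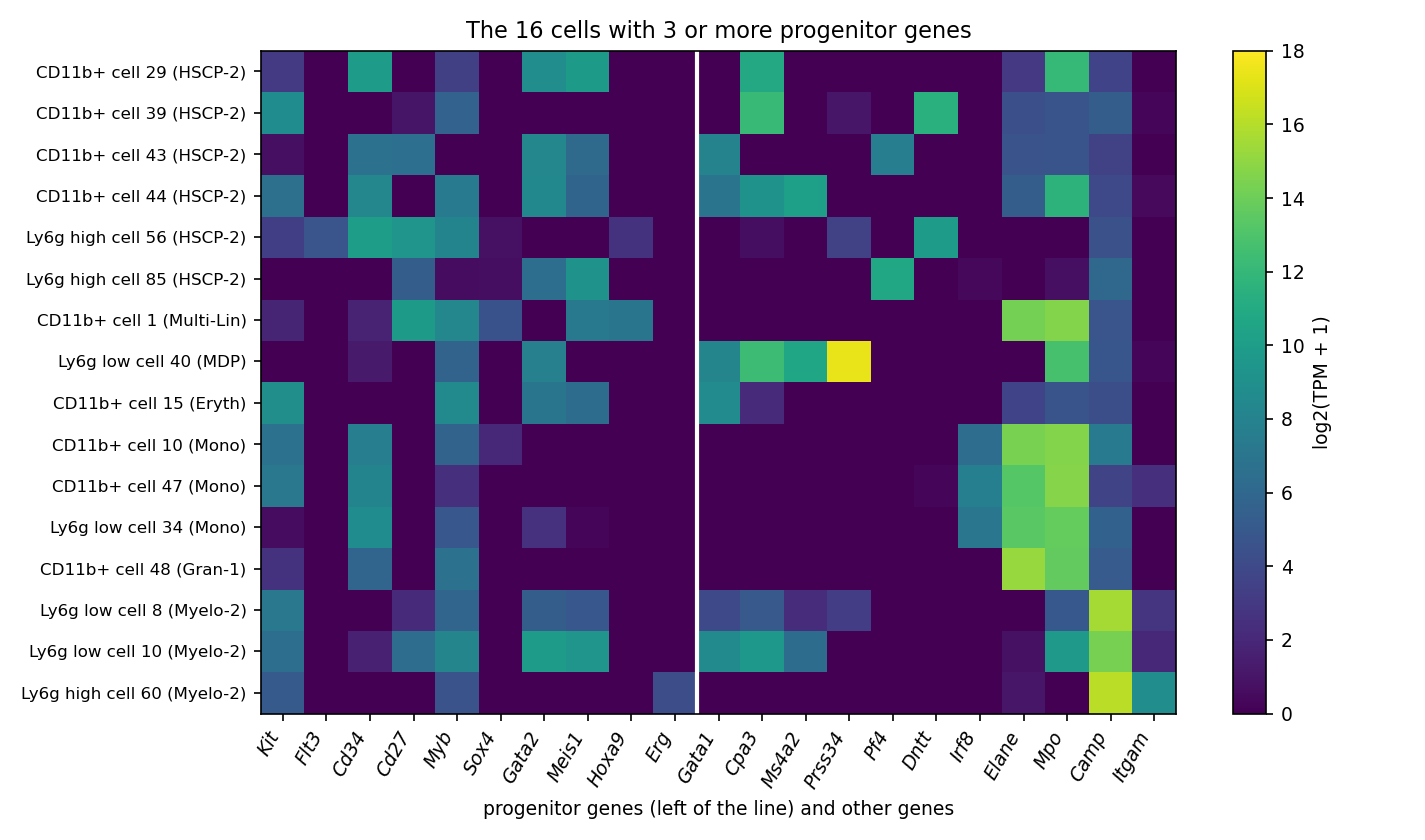
The 16 cells with 3 or more progenitor genes (rows, with gate, cell number and class) and their levels as log2(TPM + 1), progenitor genes left of the white line and lineage and granule genes right of it. Mono, Multi-Lin and Gran-1 cells hold high Elane and Mpo, HSCP-2 cells hold Cpa3, Pf4 or Dntt in different combinations, and the 3 Myelo-2 cells hold high Camp.

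Between gates, Kit and Myb were most frequent in the CD11b+ gate. Kit was detected in 6 of 46 cells in the Ly6g high gate (13.04%, interval 4.94 to 26.3). In the Ly6g low gate it was in 9 of 41 (21.95%, 10.6 to 37.6), and in the CD11b+ gate in 19 of 40 (47.5%, 31.5 to 63.9). Its lowest value was 0 in every gate, its medians were 0, 0 and 0.8 TPM, and its highest values 48.7, 208 and 481 TPM. Myb was detected in 14, 22 and 25 cells (30.4%, 53.7% and 62.5%). Its medians were 0, 1.3 and 22.8 TPM, with highest values of 291, 632 and 9788 TPM. The gates overlapped from 0 upward for both genes, and the intervals of neighbouring gates overlapped for Kit and for Myb. The median number of genes detected was 1695 in Ly6g high, 2521 in Ly6g low and 2464.5 in CD11b+ cells. The part of this difference in the shares was not tested.

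The mean of Kit was 2.56 TPM in Ly6g high, 19.95 in Ly6g low (14.9 without cells 8 and 10) and 63.5 in CD11b+ cells, and that of Myb 33.8, 46.99 and 325 TPM (82.2 in CD11b+ without cell 21). Ratios of means were computed as log2 of (mean TPM + 1), for genes that reached 1 TPM in 25% or more of the cells on one side. A gene that met this level on 1 side only was favoured by the filter to be higher there, among the 10 genes and among all measured genes. In CD11b+ over Ly6g low, Kit (1.62) and Myb (2.76) were the 2 genes of the 10 that met this level and both were at least 2-fold higher, in a comparison where 30.3% of all measured genes were higher and 7.83% lower. Kit met the level only in CD11b+ in this and the next comparison. It was detected in 19 of 40 CD11b+, 9 of 41 Ly6g low and 6 of 46 Ly6g high cells. In CD11b+ over Ly6g low the call for Myb rests on 1 cell, since its ratio was 0.79 without CD11b+ cell 21. In CD11b+ over Ly6g high Kit and Myb stood at 4.18 and 3.23 (1.26 for Myb without cell 21), where 44.5% of all measured genes were at least 2-fold higher. In Ly6g high over Ly6g low only Myb met the level, at -0.46, and 0 of the 10 were 2-fold apart, where 31.7% of all measured genes were. The first 2 comparisons share the CD11b+ cells.

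The gates differ in their classes, and within the Myelo classes the CD11b+ cells no longer had the highest shares. Kit was detected in 5 of 43 Ly6g high, 7 of 37 Ly6g low and 3 of 22 CD11b+ Myelo cells (11.6%, 18.9% and 13.6%). Myb was detected in 12, 18 and 9 of these cells (27.9%, 48.6% and 40.9%). For Myb, Ly6g high thus stayed below Ly6g low, as over all cells (30.4% and 53.7%). The median number of genes detected in these Myelo cells was 1666, 2411 and 1902, the same order as both shares. Its part in the shares was not tested. Over Ly6g low, the CD11b+ Myelo cells had log2 ratios of -0.28 for Kit and -0.52 for Myb, on the other side of 0 from the whole gates. Outside the Myelo classes Kit was in 16 of 18 CD11b+ cells, 2 of 4 Ly6g low cells and 1 of 3 Ly6g high cells. Over Ly6g high, Kit in CD11b+ Myelo cells stood at 1.96, from means of 12.7 and 2.53 TPM, and CD11b+ cell 17 alone held 262 TPM.

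**Figure D5:**
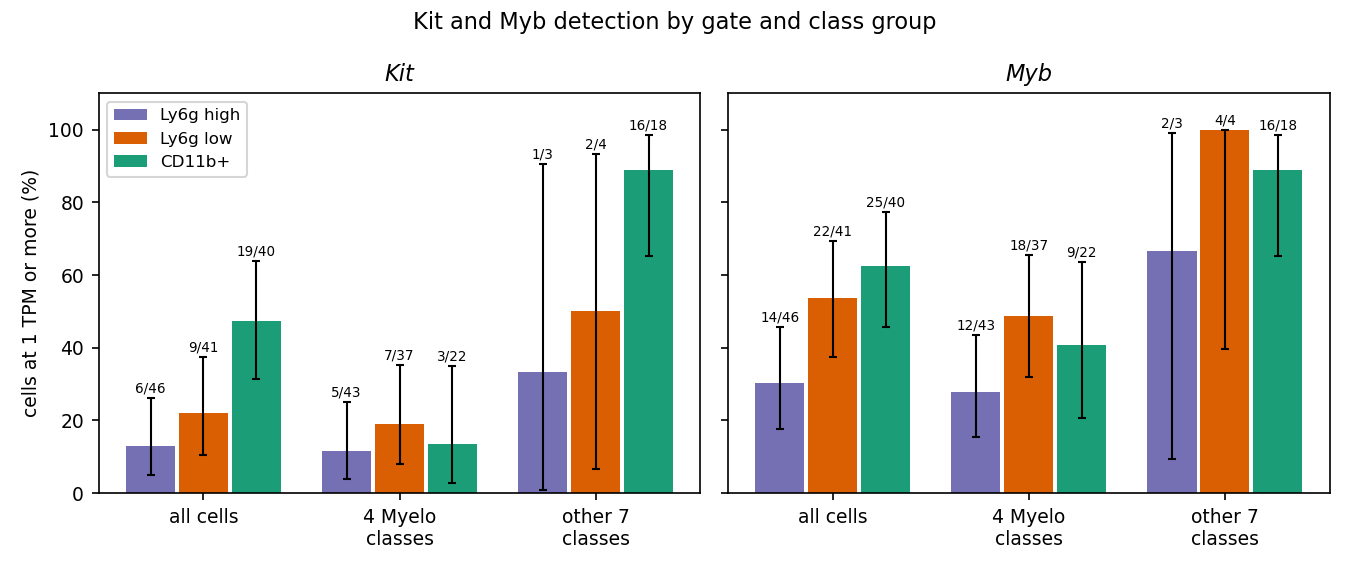
Percent of cells at 1 TPM or more for Kit and Myb by gate, for all cells, the 4 Myelo classes and the other 7 classes, with exact binomial 95% intervals and the counts above each bar. Over all cells CD11b+ has the highest bars, 47.5% and 62.5%, while in the Myelo classes Ly6g low has the highest bars and the intervals of the 3 gates overlap. The gates also differ in genes detected per cell.

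The rarer members were spread thinly. Cd34 was in 1, 3 and 7 cells of Ly6g high, Ly6g low and CD11b+ and Meis1 in 1, 2 and 5. Gata2 was in 1, 4 and 4, Erg in 2, 5 and 2, and Cd27 in 4, 2 and 3. Without Ly6g low cells 8 and 10, the Ly6g low gate had 2 cells with Cd34, 2 with Gata2, 0 with Meis1 and 0 with Cd27. Sox4 was in 1, 0 and 2 cells, Hoxa9 in 1, 0 and 1 and Flt3 in 1, 0 and 0. Cells with 3 or more of the 10 genes were 3 of 46, 4 of 41 and 9 of 40, and 2 of 39 in Ly6g low without cells 8 and 10. In the Ly6g high gate, 1 cell made up 99.97% of the summed Cd34 and 1 cell 99.86% of the summed Meis1, so gate means of these genes are values of single cells.

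Between classes, the granulocyte-named Gran-1 and Gran-2 cells (10 together) had Kit and Myb above Myelo-2, with log2 ratios of 3.18 (95.9 against 9.72 TPM) and 3.04 (236 against 27.8 TPM). Both were at least 2-fold higher, where 51.2% of all measured genes were higher and 9.38% lower. Kit met the filter on detection only in Gran (9 of 10 against 12 of 72 cells), which favoured it to be higher there. The 7 HSCP-2 cells had 5 of the 6 members measured there at least 2-fold above Gran, where 30.3% of all measured genes were higher and 40.9% lower: Cd34 at 5.67, Myb at 2.63, and Meis1, Gata2 and Cd27, which averaged 226, 169 and 113 TPM in HSCP-2 and were listed at 0 in all 10 Gran cells. In HSCP-2, 1 cell held 56.4% of the summed Meis1, 37.4% of Gata2 and 83.3% of Cd27, and the means without that cell were 115, 123 and 22.1 TPM. Kit stood at -0.07, at 91.1 against 95.9 TPM, and at -1.48 without CD11b+ cell 39. Over Myelo-2 all 6 were at least 2-fold higher in HSCP-2, where 52.4% of all measured genes were. In both comparisons Cd34, Meis1, Gata2 and Cd27 met the filter on detection only in HSCP-2, each in 4 of 7 cells. Over Myelo-2, Kit also met it only in HSCP-2. The filter favoured these genes to be higher there, so counting them as higher carries little weight. Kit and Myb met it on both sides over Gran, and Myb alone did over Myelo-2. The Myb ratios of HSCP-2 rest on CD11b+ cell 21: without it they were -1.50 over Gran and 1.54 over Myelo-2. Mono over Gran gave 4.72 for Cd34, -0.17 for Kit and -1.51 for Myb, in a comparison where 52.6% of all measured genes were at least 2-fold apart, and Sox4 averaged 3.91 TPM in Mono and 0.049 TPM in Gran, a log2 ratio of 2.23 that was 0.76 without Ly6g high cell 77. Myelo-4 over Myelo-2 gave -3.18 for Myb, where 41.8% of all measured genes were at least 2-fold lower. Myb met the filter only in Myelo-2 there, and in Mono over Gran, Cd34 and Sox4 met it only in Mono. The directions of these ratios were thus favoured by the filter too. Myelo-4 also had fewer genes detected than Myelo-2, with medians of 1409 and 2239.5, and the part of this in the Myb ratio was not tested. 1 cell made up 68.4% of the summed Kit of HSCP-2, where the median was 9.01 TPM, so its mean gives no order against Gran. Of the Gran cells, 1 of 10 had Cd34.

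Other genes of the same pathways were taken from fixed lists. In all list comparisons, a gene that met the filter on detection on 1 side only was favoured to be higher there. This holds for list genes and for all measured genes, and the counts do not set such genes apart. In CD11b+ over Ly6g low, where 30.3% of all measured genes were at least 2-fold higher and 7.83% lower, 5 of 10 measured stem and progenitor factors were higher and 0 lower, with a median log2 ratio of 0.75 against 0.48 for all measured genes. Lmo2, a LIM protein that bridges stem cell factors, had 303 against 15.9 TPM, of which 1 cell gave 83.8%. Cd93, a lectin-like receptor of early progenitors, had 57.5 against 8.38 TPM and was detected in 20 of 40 against 6 of 41 cells. Of 15 proteins that act with or below Kit, 2 were higher and 4 lower, with a median of 0.33. Lyn, a Src family kinase, was one of the higher ones, at 161 against 32.4 TPM, of which 1 cell gave 54.1% of the CD11b+ sum. Among 9 coactivators, relatives and textbook targets of Myb, 8 were higher and 0 lower, with a median of 1.34. That list includes Mpo, at 2.27 on the log2 scale, and Elane, at 1.15, which are also primary granule genes.

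In Gran over Myelo-2, where 51.2% of all measured genes were at least 2-fold higher and 9.38% lower, 6 of 9 genes of the Myb list were higher and 0 lower, with a median of 3.64 against 1.04 for all measured genes. Mpo stood at 28533 against 29.6 TPM and Mybbp1a, a Myb-binding nucleolar protein, was in 9 of 10 Gran cells and 0 of 72 Myelo-2 cells, which allows up to 4.17%. Mybbp1a thus met the filter on detection only in Gran. Of 6 surface proteins, 3 were higher, about the share of all genes, and 0 lower: Cd93 (84.1 against 3.12 TPM), Cd48 (172 against 11.3 TPM) and Fcgr3 (960 against 294 TPM). Of 18 proteins around Kit, 6 were higher and 1 lower, with a median of 0.34, below that of all genes. Among 6 cofactors of Hoxa9 and Meis1, 3 were higher and 2 lower.

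In HSCP-2 over Gran, where 30.3% of all measured genes were at least 2-fold higher and 40.9% lower, 12 of 15 stem and progenitor factors were higher and 2 lower, with a median of 1.91 against -0.28 for all measured genes. Ikzf2, an Ikaros family factor, was in 4 of 7 HSCP-2 cells (mean 110 TPM) and listed at 0 in all 10 Gran cells. Ikzf2 thus met the filter on detection only in HSCP-2. How many of the 12 higher factors met it on both sides was not counted, so their number carries little weight. Of 9 surface proteins, 4 were higher and 3 lower. Gpr56, an adhesion receptor, stood at 227 against 1.81 TPM. Fcgr3 was lower, at 0.36 against 960 TPM. The Myb list was split, with 4 of 11 higher and 5 lower. The lower ones included the cell cycle genes Mybl2 and Ccnb1, at -6.64 and -7.09 on the log2 scale, and Elane at -4.97. The proteins around Kit were also split, with 6 of 20 higher and 9 lower, as were the cofactors of Hoxa9 and Meis1, with 3 of 6 higher and 3 lower.

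Among 6150 genes detected in at least 10% of cells, those most like the mean of the 10 genes over all cells were Gpr56 (Pearson r = 0.791 of log2(TPM + 1)), Tsc22d1 (0.771), Phgdh (0.757), Cbfa2t3 (0.727) and Slc25a4 (0.671). Gpr56 and Tsc22d1 were each detected in 14 cells, Phgdh in 27. Genes most like Kit alone were Hspd1 (0.556), Nop58 (0.547) and Lipa (0.543), and those most like Myb were Nkg7 (0.586), Mpo (0.568) and Denr (0.565). The cells share libraries and differ in genes detected, so these are descriptions. Nkg7 and Mpo are also on the fixed list of primary granule genes, and Nkg7 on that of T and NK cells.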

How the data were processed

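Each cell was sequenced as a SMARTer cDNA, Nextera XT library, read at 150 bp paired-end, per the labels. The submitters' processing notes name Bowtie2, RSEM and mm9, without versions. The authors deposited log2 values, which match log2(TPM + 1): converted back, the cells summed to 999633 to 1005383. Counts were not used, so depth is known only through the genes at 1 TPM or more per cell (median 1695 in Ly6g high, 2521 in Ly6g low, 2464.5 in CD11b+). 2 cells correlated at most at 0.884, so no pair held the same values. Each column was matched to a sample by its description, with 0 columns left over.

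Detection means 1 TPM or more, measured means detection in 25% or more of the cells on one side, and ratios are log2 of (mean TPM + 1), called at 2-fold. Since each gate is 1 sample, no test was made. Intervals are exact Clopper-Pearson at 95%, and a count of 0 was given a limit of 3 cells of the total. The ratio code was tested on resampled Ly6g low cells, with known fold changes planted in widely detected genes. That check does not cover genes as sparse as most of the 10. Alternatives were the pseudocount, the detection level, no filter, other means, leaving out top cells or classes, and a single gate. The 10 genes and all lists were chosen with earlier results of these data known. The text names the 10 genes, at most 4 genes per list and comparison by size of ratio, and the genes most like the 10, and predicted, ribosomal and mitochondrial genes were left out of naming. Examples of lineage genes were chosen after their values were seen. Promoters came from RefSeq (GRCm38.p6), and all 10 genes matched. Analyses used Python 3.11.15, numpy 2.4.6, pandas 2.3.3, scipy 1.17.1 and matplotlib 3.10.9.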

Additional observations from a re-analysis of the deposited data

Results flagged for a closer look

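Among 15 pairs of a class of 4 to 10 cells and a gene detected in at least 3 of them, 1 had a cell far from the rest. Myb in Gran-2 was lowest in CD11b+ cell 25, at 0.35 TPM, while the other 5 cells stood between 87.1 and 632 TPM, and the gap to the nearest was 0.679 of the range on the log2 scale. The same cell had the lowest Kit of Gran-2, 1.59 TPM. The cutoff would flag about 1 in 20 such groups by chance if values were normally distributed. The rate for sparse values such as these was not estimated.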

How the results depend on the processing

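No paired analysis was possible because each number names a single cell, the numbers pair nothing across gates and no test was made. Of 98 alternatives to counts, 82 stayed within 1.5 times, and of 750 alternatives to the log2 ratio of a gene, 508 stayed, 221 moved and 21 turned. A ratio turned if its size was 1 or more and its sign changed. Otherwise it stayed if its shift was under the pooled standard deviation of log2(TPM + 1) between cells, a wide allowance. Myb in CD11b+ over Ly6g low counted as stayed although leaving out CD11b+ cell 21 took it from 2.76 to 0.79 and ended its call. Without the filter on low values, members at least 2-fold apart were 5 in Ly6g high over Ly6g low (0 with it), 6 in CD11b+ over Ly6g low (2), 7 in CD11b+ over Ly6g high (2), 7 in Gran over Myelo-2 (2) and 5 in Myelo-4 over Myelo-2 (1). The share over all genes was not computed for these or the other alternative settings, so the counts show nothing particular to the members. Within Myelo cells the 2 CD11b+ comparisons gave 0 and 0, since only Myb met the filter there (Kit over Ly6g high was still 1.96). Without HSCP-2, Multi-Lin, MDP and Eryth cells CD11b+ over Ly6g low gave 1, as it did without CD11b+ cell 21, and within CD11b+ cells Myelo-4 over Myelo-2 gave 3. That last comparison set 3 cells against 14, so a single detection in Myelo-4 met the filter. Cells with 3 or more members were 1 in Ly6g high at 100 TPM (3 at 1 TPM), 2 at 5 and 10 TPM and 1 at 100 TPM in Ly6g low (4), 2 there without cells 8 and 10, and 4 in CD11b+ at 100 TPM (9). Leaving out Ly6g low cells 8 and 10, or CD11b+ cell 21, was chosen after seeing the data.

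Ratios turned as follows. In Ly6g high over Ly6g low, Cd34 (1.02) was -0.059 by mean log2, -0.12 without the highest cells, -0.070 in Myelo cells and -3.54 without HSCP-2, Multi-Lin, MDP and Eryth cells, and Cd27 (2.44) was -0.57 and -0.51 in the last 2. In CD11b+ over Ly6g low, Erg (1.05) was -0.26 by mean log2 and -1.57 without the highest cells, Myelo cells gave Kit -0.28, Cd34 -0.081, Myb -0.52 and Cd27 -1.78, and Cd27 was -1.70 without the early classes. In CD11b+ over Ly6g high, Myelo cells gave Cd34 -0.011, Myb -0.23 and Meis1 -0.018, and Meis1 was -0.021 without the early classes. Myb in HSCP-2 over Gran (2.63) was -1.36 by mean log2, -1.20 without the highest cells and -1.50 without CD11b+ cell 21, and Erg in Myelo-4 over Myelo-2 (2.66) was -1.48 without the highest cells. The leave-out settings show that 1 or a few cells set these means, and classes of 4 to 7 cells limit what their shares can show.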
